A study of Mus musculus with 2 samples.

Results

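The genes described here build and run the transport machinery of the primary cilium, or encode the heavy chains of the motors that make motile cilia beat. They are all protein-coding genes of the mouse whose symbols are those of intraflagellar transport proteins (Ift), Bardet-Biedl syndrome proteins (Bbs), cytoplasmic dynein 2 subunits (Dync2) or axonemal dynein heavy chains (Dnah). The rule uses symbol and biotype. The rule gave 39 of 21474 protein-coding genes, of which 24 are transport genes and 15 are axonemal dynein heavy chain genes.

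Their RNA was measured in hearts of B6NCrl mouse embryos (a C57BL/6N substrain) at day 13.5 of development, without mutation or treatment. Total RNA longer than 200 nt was sequenced from 10 ng of input with spike-in RNA in 2 libraries, the biological replicates 1 and 2 of 1 group. Male and female embryos were pooled, and both tissue samples are listed under the same donor. Levels are TPM, a measure of transcript abundance per length that sums to the same total in each library. A mean is given ± SD over the 2 libraries (n = 2), and no p-value was computed, since the design holds 1 group.

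Most vertebrate cells can grow a primary cilium, a single immotile antenna that receives signals such as Hedgehog. Intraflagellar transport moves cargo along it on trains made of IFT-B and IFT-A proteins. Kinesin-2 pulls the trains to the tip, and cytoplasmic dynein 2 pulls them back. The BBSome, a coat of Bbs proteins, rides on the trains and carries membrane receptors out of the cilium. Motile cilia and sperm tails use the same trains and in addition carry outer and inner rows of axonemal dyneins, whose large heavy chains slide the microtubules past each other. In mouse embryos the beating cilia of the node set left and right before the heart loops, and mutants of Dnah5 and Dnah11 have reversed or ambiguous organ positions.

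RFX transcription factors switch on cilium genes through a promoter motif called the X-box. Of the 39 members, 34 had a promoter window from RefSeq (GRCm38.p6). It runs from 250 bases before to 50 bases after the RefSeq start of the gene. That start can differ from the GENCODE gene limits given elsewhere in this text. The Dync2h1 window (chromosome 9, 7177009 to 7177308, minus strand) lies inside the GENCODE gene, which ends at 7184446. The Dnah8 window (chromosome 17, 30626686 to 30626985, plus strand) also lies inside its gene, which starts at 30624354. The X-box was searched on both strands as the letters GTNNCC, 2 free bases and the letters GGNNAC. These letters stood in the windows of 5 genes, all of them transport genes, and the 5 sites are shown because both gene classes are set against them below. Each stretch of 30 bases reads 5′ to 3′ on the strand of the gene, with the 14 bases of the motif in capitals.
Bbs1 (chr19:4906605-4906634, minus strand): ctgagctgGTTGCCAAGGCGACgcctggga
Bbs4 (chr9:59353464-59353493, minus strand): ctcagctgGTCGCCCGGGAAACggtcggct
Bbs7 (chr3:36613489-36613518, minus strand): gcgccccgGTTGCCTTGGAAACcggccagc
Ift22 (chr5:136908079-136908108, plus strand): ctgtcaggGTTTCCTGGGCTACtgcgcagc
Ift57 (chr16:49699199-49699228, plus strand): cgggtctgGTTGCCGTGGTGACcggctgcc

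The tissue label was checked first. All 6 heart muscle markers were above 1 TPM in both libraries (median 4297 TPM), with the highest means in Actc1 at 9672 TPM, Myl2 at 6763 TPM and Tnnt2 at 4699 TPM. Of 10 markers of multiciliated cells, which carry many motile cilia, 3 reached 1 TPM in both libraries. These 3 were Tppp3 at 9.62 and 10.1 TPM, Cfap126 at 2.20 and 2.27 TPM and Rsph1 at 1.06 and 1.23 TPM, and the list, with a median of 0.14 TPM, summed to 14.2 TPM in replicate 1 and 15.1 TPM in replicate 2. Sntn and Gmnc were at 0 in both libraries, and Mcidas was at 0.02 and 0 TPM. Markers of lung and foregut epithelium, a neighbouring tissue that can form motile cilia, summed to 31.6 and 30.2 TPM, and 5 of 8 were detected, meaning at least 1 TPM in both libraries (median 2.12 TPM). Sftpc, Epcam and Cldn6 were highest there, with means of 8.63, 8.62 and 7.63 TPM, and Sox2 (0.23 and 0.23 TPM) and Shh (0.46 and 0.31 TPM) were below 1 TPM. The 6 liver markers (median 44.9 TPM) differed between the libraries, with a sum of 92.5 TPM in replicate 1 and 462 TPM in replicate 2, mostly from Afp, Trf and Apoa2. The part of these other cell types in the levels of the members was not tested.

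Estimated reads totalled 36733400 and 36060765, and 1 TPM stood for 29.3 and 27.4 reads per 1 kb of effective length. Effective length is the deposited transcript length reduced to the positions where a read can start. Spike-ins held 11.1% of TPM in replicate 1 and 5.04% in replicate 2. The median gene with enough reads was 0.14 higher in replicate 2 on the log2 scale of TPM, so small differences between the libraries in the TPM values below should be read against that shift.

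The embryonic heart held RNA of nearly the whole transport set and very little RNA of the axonemal dynein heavy chains. Of the 24 transport genes, 23 reached 1 TPM in both libraries, and of the 15 dynein heavy chain genes 0 did. Among all protein-coding genes, 57.3% reached that level. In replicates 1 and 2 the median transport gene stood at 9.68 and 8.71 TPM, and the median dynein heavy chain gene at 0.04 and 0.06 TPM. The median of all protein-coding genes was 3.07 TPM, between the medians of both classes. In bulk tissue, few cells with much RNA and many cells with little cannot be told apart.

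The ratio of the class medians was 156-fold (log2 7.28), with 242-fold in replicate 1 and 145-fold in replicate 2. With the deposited posterior mean TPM it was 54.1-fold, as the dynein median was then 0.18 TPM. On models of at least 50% of the length of each gene's longest model it was 232-fold, and for reads per kilobase of the longest model 269-fold. Of all pairs of a transport gene and a dynein gene, the transport gene was higher in 99.7% in each library. The exception was the pair of Bbs1 and Dnah7b. All 24 transport genes together held 416 TPM in replicate 1 and 466 TPM in replicate 2, while all 15 dynein genes together held 2.46 and 2.54 TPM. The transport genes rested on 17833 and 18349 estimated reads and the dynein genes on 473 and 479. At 10 TPM or more in both libraries stood 10 transport genes and 0 dynein genes, against 33.9% of all protein-coding genes. The median transport gene lay at percentile 63.9 of protein-coding genes by TPM and the median dynein gene at percentile 26.1.

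**Figure D1:**
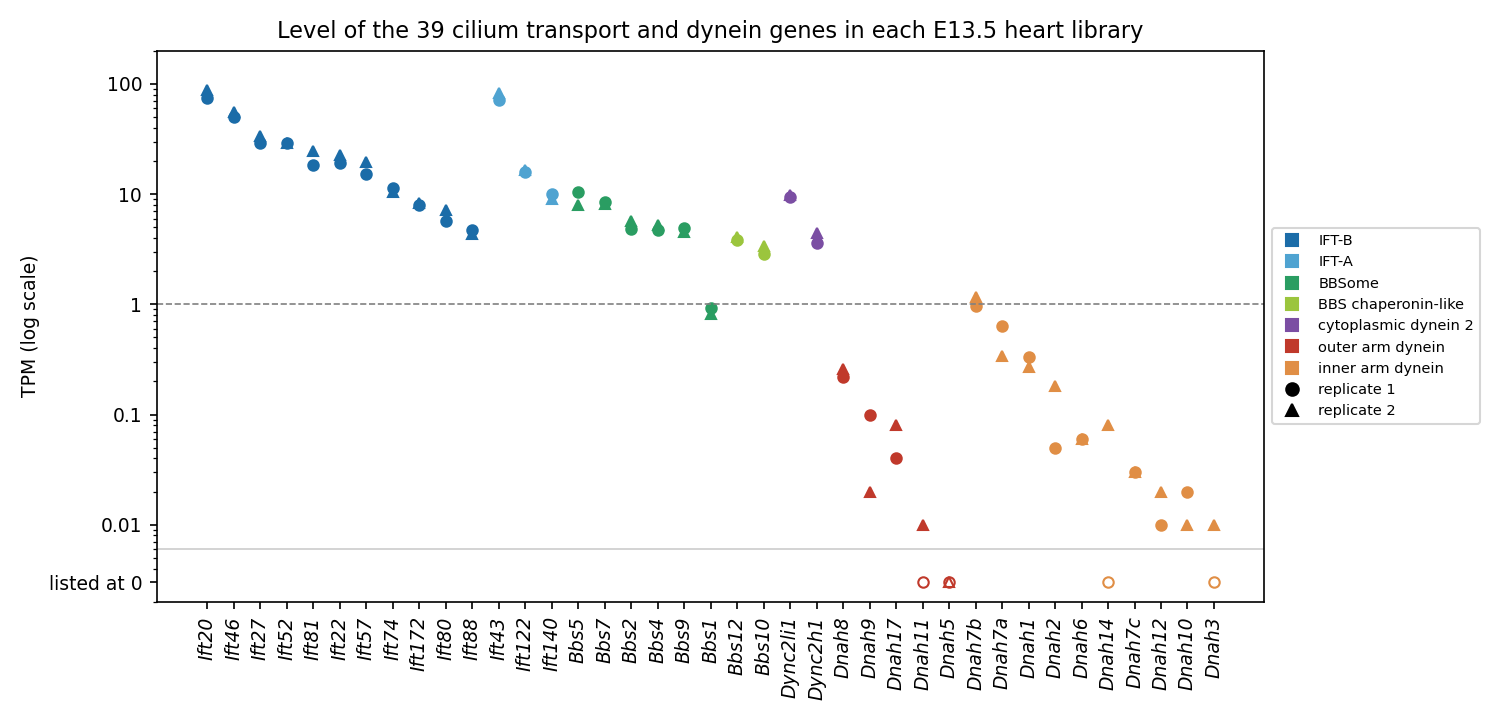
TPM on a log scale of each of the 39 genes in replicate 1 (circles) and replicate 2 (triangles), ordered by role and level, with open symbols for genes listed at 0 and a dashed line at 1 TPM. Transport genes, on the left, lie above the line except Bbs1, and dynein heavy chain genes, on the right, lie below it except Dnah7b in replicate 2.

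IFT-B, the larger train complex that moves toward the tip, had a median of 21.04 TPM and all 11 members detected. IFT-A had a median of 16.2 TPM, so IFT-B was higher by the median, but the mean per gene was lower in IFT-B (25.9 TPM) than in IFT-A (34.3 TPM). On models of at least 50% of the longest the IFT-B median was 9.63 TPM and the IFT-A median 15.7 TPM. This limit also leaves out leading protein-coding models of some IFT-B genes. In Ift46 it drops Ift46-202 (1317 nt, 48.7% and 49.3% of TPM), since the longest model has 3411 nt, and leaves a mean of 0.835 TPM. The order of these member medians therefore depends on the measure. Further subunits of both complexes lie outside the symbol rule, and medians of the whole complexes were not computed. Of these, the IFT-A subunits Wdr19 (2.74 and 2.61 TPM), Ttc21b (4.46 and 4.93 TPM) and Wdr35 (10.2 and 9.92 TPM) were below the IFT-A member median. Ift20 (ENSMUSG00000001105.11, chromosome 11, 78536361 to 78541737), which also sits at the Golgi apparatus and sorts cargo there, was highest of all members at 74.3 and 88.0 TPM. Its 1850 reads in replicate 1 have an exact Poisson 95% interval of 1767 to 1936, and its 2132 reads in replicate 2 one of 2042 to 2224. These intervals cover counting error alone. By TPM, both libraries place Ift20 far above the median member. Ift46, which carries outer dynein arms on the trains in the alga Chlamydomonas, was at 50.5 and 55.8 TPM. Ift52, a core scaffold subunit, was at 28.9 and 28.9 TPM, and the small GTPase Ift27 at 29.2 and 33.7 TPM.

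The middle of the group held Ift81, a tubulin-binding subunit, at 18.2 and 24.6 TPM, and its partner Ift74 at 11.4 and 10.4 TPM. Ift22, a GTPase-like subunit, was at 19.3 and 22.8 TPM, and Ift57 at 15.1 and 19.6 TPM. The gene totals of the partners Ift81 and Ift74 did not overlap, but on long models, of at least 50% of the longest, Ift81 held 8.93 and 10.3 TPM and Ift74 11.4 and 10.4 TPM. The rest of Ift81 lay mainly on the retained intron Ift81-207, with 28.14% and 37.97% of its TPM. Ift172, a large subunit that acts at the tip, was at 7.94 and 8.34 TPM and Ift80 at 5.75 and 7.19 TPM. Lowest was Ift88, whose loss is a standard way to remove cilia in mice, at 4.69 and 4.32 TPM. From Ift20 to Ift88 the level changed by 15.8-fold in replicate 1 and 20.4-fold in replicate 2.

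IFT-A, which takes part in the return journey and in the entry of membrane proteins, was represented by 3 genes, all detected. Ift43 was at 71.2 and 83.0 TPM, next to Ift20 in the order of all members. Ift122 was at 15.8 and 16.5 TPM and Ift140 at 9.99 and 9.08 TPM. The ranges of Ift20 and Ift43 over the 2 libraries overlapped, although Ift20 was higher within each library. Ranges take in the TPM shift between the libraries, so overlap alone does not settle an order. Such overlap held for 13 of the 23 neighbouring pairs in the order of transport genes, while Ift43 and Ift46, Ift46 and Ift27, and Bbs10 and Bbs1 were among the pairs with separate ranges.

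The 6 BBSome subunits among the members had a median of 5.14 TPM, lower than the medians of the IFT-B and IFT-A members. Of these 6, 5 reached 1 TPM in both libraries. Bbs5 was at 10.4 and 7.93 TPM, Bbs7 at 8.41 and 8.09 TPM, Bbs2 at 4.85 and 5.73 TPM, Bbs4 at 4.72 and 5.27 TPM and Bbs9 at 4.94 and 4.50 TPM. These 5 overlapped the lower train subunits, since Bbs5 and Bbs7 had higher means than Ift80 and Ift88. Bbs1 (chromosome 19, 4886878 to 4906628), the subunit that contacts the recruiting GTPase Arl6, stood apart at 0.93 and 0.81 TPM, on 149 and 121 reads. Its deposited credibility interval ran from 0.77 to 1.06 TPM in replicate 1 and from 0.66 to 0.94 TPM in replicate 2. The files list 1 transcript of 5581 nt for Bbs1, and TPM depends on that length. Bbs12 and Bbs10, chaperonin-like proteins that help to assemble the BBSome, were at 3.85 and 4.05 TPM and at 2.89 and 3.41 TPM.

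Cytoplasmic dynein 2, the return motor, was detected through both members. Its light intermediate chain gene Dync2li1 was at 9.36 and 9.92 TPM. The heavy chain gene Dync2h1 (chromosome 9, 6928503 to 7184446) was at 3.59 and 4.48 TPM, on 616 and 637 reads. The heavy chain gene of the general motor of the cytoplasm, Dync1h1, had 9.09 times and 7.67 times the TPM of Dync2h1. These are ratios of gene totals, and most of the TPM of Dync2h1 lay on short models, as given below. The models of Dync1h1 were not examined.

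Dnah7b (chromosome 1, 46066315 to 46373546), an inner arm heavy chain gene, was the highest axonemal dynein at 0.96 and 1.17 TPM, on 143 and 149 reads. Dnah7a, a close relative, was at 0.64 and 0.34 TPM on 26.2 and 23.9 reads. Dnah1, another inner arm gene, was at 0.33 and 0.27 TPM on 124 and 95 reads. These were the upper end of the class, and the outer arm gene Dnah8, whose human counterpart is known from sperm tails, followed at 0.22 and 0.26 TPM on 92 and 104 reads. Together Dnah7b, Dnah1 and Dnah8 held 75.9% of the reads of the class in replicate 1 and 72.5% in replicate 2.

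The other outer arm genes were lower still. Dnah17 was at 0.04 and 0.08 TPM on 18 and 33 reads, and Dnah9 at 0.10 and 0.02 TPM on 8 and 3 reads. Dnah11, mutated in the mouse strain inversus viscerum, had 1.04 and 2.08 estimated reads, which the file lists as 0.00 and 0.01 TPM. Dnah5 (chromosome 15, 28203752 to 28472052), the main outer arm heavy chain of airway cilia, had 0 reads in both libraries. By a 1-sided 95% Poisson limit a count of 0 allows up to 3 reads. For its transcript of 15630 nt that is 0.0066 TPM in replicate 1 and 0.0071 TPM in replicate 2. The 2-sided interval, as given for Ift20, reaches 3.69 reads. At this depth no RNA of Dnah5 was detectable.

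Among the remaining inner arm genes Dnah2 was at 0.05 and 0.18 TPM on 18.1 and 28.2 reads, Dnah6 at 0.06 and 0.06 TPM on 22 and 21 reads, and Dnah7c at 0.03 and 0.03 TPM on 9.7 and 10.4 reads. Dnah12 had 3 and 3 reads, Dnah10 7 and 2, Dnah3 1 and 3, and Dnah14 0 and 2. These genes are at the limit of what the libraries resolve, and 7 of the 15 dynein genes had fewer than 10 reads in both libraries. For Dnah14 the files list no long model, the longest being 1986 nt and not protein-coding, so its value describes fragments of the gene. Of the 15 genes, 13 have a listed transcript over 10 kb, so low reads were spread over long models.

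**Figure D2:**
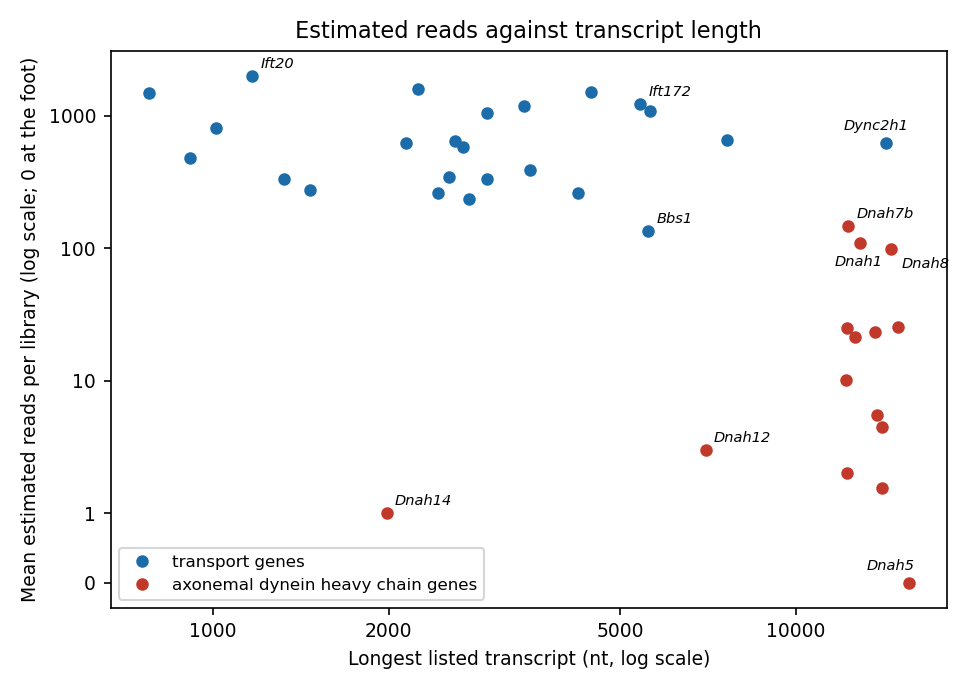
Mean estimated reads per library (log scale) against the longest listed transcript in nt (log scale), for 24 transport genes and 15 axonemal dynein heavy chain genes, with 0 reads drawn at the foot. At a similar length, Dync2h1 has 616 and 637 reads and Dnah5 has 0.

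Dync2h1 and the axonemal heavy chains are members of the same protein family with transcripts of similar length, so they were compared on models of at least 50% of the longest one. On these, Dync2h1 held 0.87 and 0.91 TPM, and the highest axonemal gene, Dnah7b, held 0.35 and 0.37 TPM. The ratio was 2.49-fold in replicate 1 and 2.46-fold in replicate 2, smaller than the ratio of the gene totals, and the libraries did not overlap. Most of the TPM of Dync2h1 lay elsewhere. The model Dync2h1-202, of 2892 nt, held 53.7% of the gene's TPM in replicate 1 and 70.7% in replicate 2, and Dync2h1-204, of 14264 nt, held 21.8% and 20.3%. Counted in reads, the long models held 58.7% and 55.4% of Dync2h1, because a short model needs few reads to reach a given TPM.

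The same holds for Dnah7b and Dnah7a. In Dnah7b the long model Dnah7b-201 (12314 nt) held 88.7% and 82.5% of the reads and 37.0% and 31.4% of the TPM. The rest of its TPM lay mainly on Dnah7b-203 (740 nt, 17.3% and 45.4%), a model marked for nonsense-mediated decay, and Dnah7b-205 (631 nt, 40.1% and 5.88%), a retained intron. Those shares rested on 3.12 and 9.31 reads and on 6 and 1 reads, so the total of Dnah7b near 1 TPM turned on a handful of reads. In Dnah7a, Dnah7a-202 (732 nt, not protein-coding) held 93.3% and 83.1% of the TPM on 11 and 4.87 reads. Its long model was at 0.04 and 0.06 TPM. Dnah2 had 90.8% of its TPM on Dnah2-202 in replicate 1, and 37.8% on Dnah2-201 with 0% on Dnah2-202 in replicate 2.

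Several models were listed, with TPM above 0 in both libraries, for 16 transport genes and 9 dynein genes. In 8 of the 16 transport genes and 6 of the 9 dynein genes the same model held over 50% of TPM in both libraries, against 68.4% of protein-coding genes under the same conditions. Over 50% of TPM lay on models shorter than 50% of the longest in 4 transport genes and 3 dynein genes, against 16.1% of protein-coding genes. The transport genes were Ift46, Ift57, Ift81 and Dync2h1, and the dynein genes were Dnah7b, Dnah7a and Dnah9. In all 3 dynein genes, models that are not protein-coding held over 50% of TPM in both libraries, and in the transport genes this held for 0 of 16, against 9.73% of protein-coding genes. For Dnah9 that share rested on 8 and 3 reads in all, and for Dnah7b most reads lay on the long protein-coding model, as given above. Ift46 counted here because its longest model of 3411 nt held 1.87% and 1.30% of TPM, while the protein-coding Ift46-202 of 1317 nt held 48.7% and 49.3%. Ift20 was led by Ift20-203 (1141 nt, 47.7% and 55.8%), and Ift122 was split between the non-coding Ift122-204 (34.3% and 42.1%) and the protein-coding Ift122-201 (34.3% and 36.4%).

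**Figure D3:**
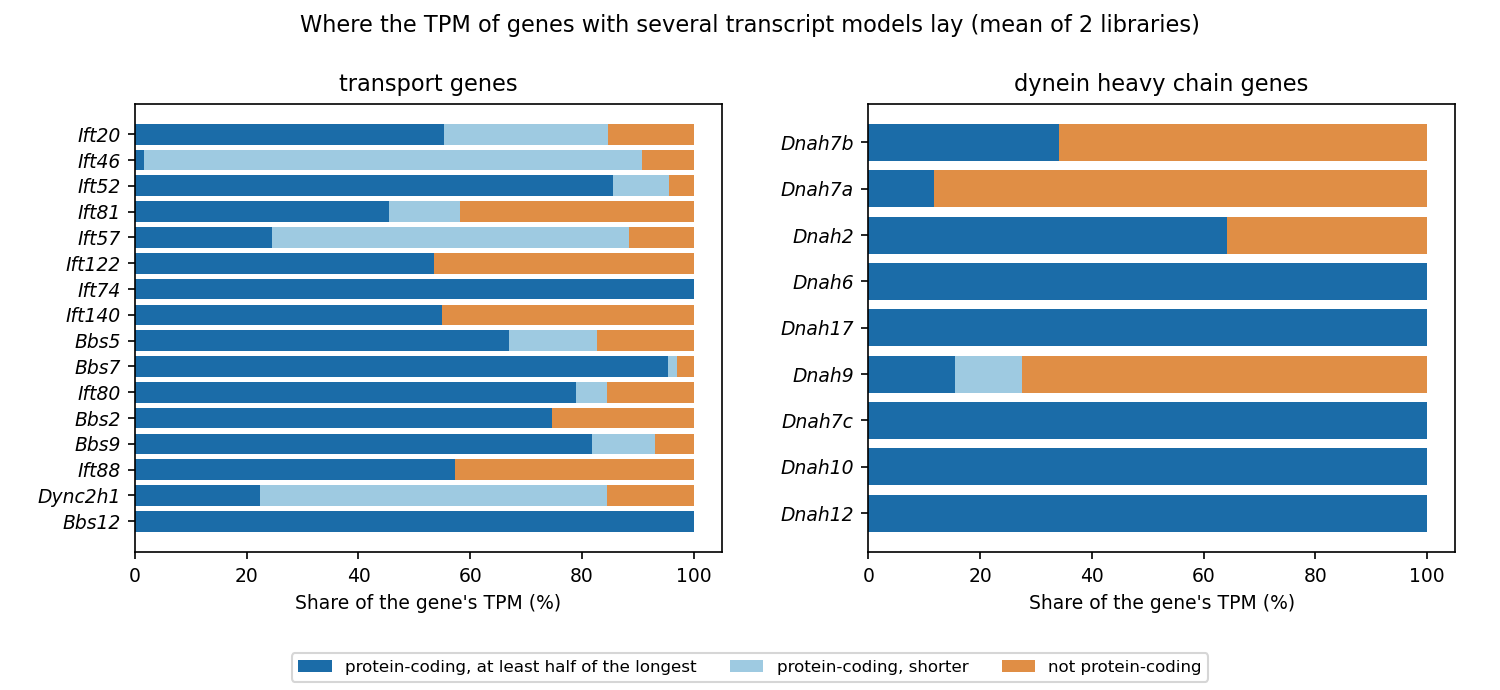
Share of each gene's TPM (%, mean of 2 libraries) on long protein-coding models, shorter protein-coding models and models that are not protein-coding, for 16 transport genes and 9 dynein heavy chain genes with several models. Models that are not protein-coding fill most of the bars of Dnah7a, Dnah7b and Dnah9, and short protein-coding models most of those of Ift46, Ift57 and Dync2h1.

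The 3 Dnah7 genes lie on chromosome 1 and are near copies. Over their aligned long transcripts Dnah7a and Dnah7b were 96.8% identical, Dnah7a and Dnah7c 96.9%, and Dnah7b and Dnah7c 97.3%. Read length is not labelled and was taken as 100 nt, from the difference between listed and effective transcript lengths. Of all windows of 100 nt, 20.0% of Dnah7a-201, 23.5% of Dnah7b-201 and 24.9% of Dnah7c-204 also occurred in another gene's transcript. The stretch of 60 bases below, from GENCODE M21 transcripts, shows how few bases can tell the copies apart, with the 2 differing positions in capitals.
Dnah7a-201, bases 6095 to 6154: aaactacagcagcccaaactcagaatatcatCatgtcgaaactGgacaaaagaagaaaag
Dnah7b-201, bases 6158 to 6217: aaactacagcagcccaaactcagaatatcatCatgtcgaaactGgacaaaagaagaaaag
Dnah7c-204, bases 6047 to 6106: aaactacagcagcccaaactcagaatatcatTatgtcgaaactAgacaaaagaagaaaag
No base of this stretch separates Dnah7a from Dnah7b, but a read of 100 nt also covers bases outside it. Estimated counts of all 3 genes were not whole numbers in these libraries, a mark of reads divided among models, so how their reads split is uncertain. Their sum was whole, at 179 reads in replicate 1 and 183 in replicate 2, and amounted to 1.63 and 1.54 TPM. Without the 3 copies the median dynein heavy chain gene was at 0.05 TPM.

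Exons of 4 transport genes and 10 dynein genes share bases with another gene on the opposite strand. The share of exon bases was largest for Dnah3 with Lyrm1, at 10.5%, followed by Ift57 with the antisense RNA Gm15518 at 7.86%, Dnah11 with Cdca7l at 4.44% and Dnah1 with Gm35823 at 4.22%. The sources used here do not say whether counting used the strand, so reads of these genes and of their partners cannot be told apart in the shared bases. For Dnah3 and Dnah11 this touches values that rest on 3 reads or fewer. Estimated counts were whole, to within 0.005, in both libraries for 23 of 24 transport genes, all but Ift57, and for 9 of 15 dynein genes, against 80.2% of protein-coding genes.

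Both libraries gave much the same levels for the members with enough reads. Of the 27 members with a mean count of at least 50 (all 24 transport genes, Dnah7b, Dnah1 and Dnah8), 0 were at least 2-fold apart on scaled counts, against 0.937% of protein-coding genes. At that share, 0 of 27 is not a trait of the members in particular. The other dynein heavy chain genes had fewer reads and were left out here. The log2 ratio of replicate 2 over replicate 1 had a median of 0.003 and ran from −0.43 in Dnah1 to 0.21 in Ift80. Transport genes were higher in replicate 2 in 12 cases and lower in 12. The liver markers, in comparison, had a median log2 ratio of 2.35, against −0.01 in the transport genes. Scaling by spike-ins raised the median log2 ratio of all genes with enough reads to 1.28, and that of the members to 1.29. On that scale replicate 2 exceeded replicate 1 by at least 2-fold in 25 of the 27 members, and 93.3% of all genes were at least 2-fold apart, so relative to the shift of all genes the members stayed within 0.01 at the median.

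Other genes of both cilium types were described from lists of known components. Genes that primary and motile cilia share reached 1 TPM in both libraries, the limit used throughout, in most cases. Of 11 other genes of IFT subunits and partners (Tulp3 among them) 10 passed (median 4.70 TPM). The highest were Hspb11 (the IFT-B subunit IFT25) at 25.9 and 29.7 TPM, Cluap1 at 8.80 and 11.8 TPM and Wdr35 at 10.2 and 9.92 TPM. Ttc30a2 was at 0.97 and 0.81 TPM. The list of other Bbs genes and partners reached 1 TPM in 6 of 6 cases (median 19.5 TPM). The highest values were in Mkks, another chaperonin-like gene, at 40.6 and 47.5 TPM, Rab3ip, which activates Rab8 at the cilium base, at 30.0 and 36.7 TPM, and Lztfl1, a BBSome regulator, at 22.2 and 24.0 TPM. The median of this list lay above that of the BBSome members. This does not set the BBSome apart from other Bbs genes, since the list also holds 2 BBSome subunits. These are Ttc8 at 9.35 and 10.41 TPM and Bbip1 at 10.72 and 13.15 TPM.

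Kinesin-2 passed with 4 of 5 genes (median 3.95 TPM). Kif3a, a motor subunit, was at 27.5 and 32.5 TPM, Kifap3 at 14.5 and 15.5 TPM and Kif3c at 3.80 and 4.10 TPM, while Kif17 was at 0.61 and 0.63 TPM. Other subunits of dynein 2 passed in 8 of 8 cases (median 35.1 TPM). The 3 highest, Dynll1 at 928 and 1158 TPM, Dynlrb1 at 320 and 364 TPM and Dynlt1b at 284 and 328 TPM, encode light chains that dynein 1 also uses, so they say little of the cilium. The transition zone and ciliary membrane, the gate at the base, passed with 17 of 17 genes (median 6.12 TPM), with B9d2 at 18.9 and 21.9 TPM and Tmem216 at 13.6 and 15.6 TPM among the highest. Dynein 1 passed with 5 of 5 genes (median 33.5 TPM), and the highest were Dync1li1 at 57.3 and 63.5 TPM, Dync1i2 at 46.3 and 53.1 TPM and Dync1h1 at 32.7 and 34.4 TPM.

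Components of motile axonemes were lower, as the heavy chains were, but with exceptions. Of 7 axonemal dynein intermediate and light chain genes, 3 passed (median 0.88 TPM). Dnal4 was at 27.3 and 30.5 TPM, Dnal1 at 1.72 and 2.13 TPM and Dnaic1 at 1.73 and 1.76 TPM, while Dnaic2, Dnali1 and Wdr63 were below 1 TPM in both libraries, at 0.11 and 0.29 TPM, 0.08 and 0.11 TPM, and 0.07 and 0.11 TPM. Of 13 factors that assemble or dock dynein arms, 3 passed (median 0.60 TPM). These were Dnaaf2 at 11.98 and 13.97 TPM, Dnaaf5 at 4.48 and 4.57 TPM and Ccdc114 at 2.53 and 3.32 TPM, and Armc4 and Pih1d3 were at 0. Of 15 radial spoke, central pair and axoneme regulator genes, 6 passed (median 0.41 TPM). Rsph3b at 36.2 and 43.8 TPM, Gas8 at 11.4 and 11.0 TPM and Rsph9 at 4.65 and 5.03 TPM were highest.

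**Figure D4:**
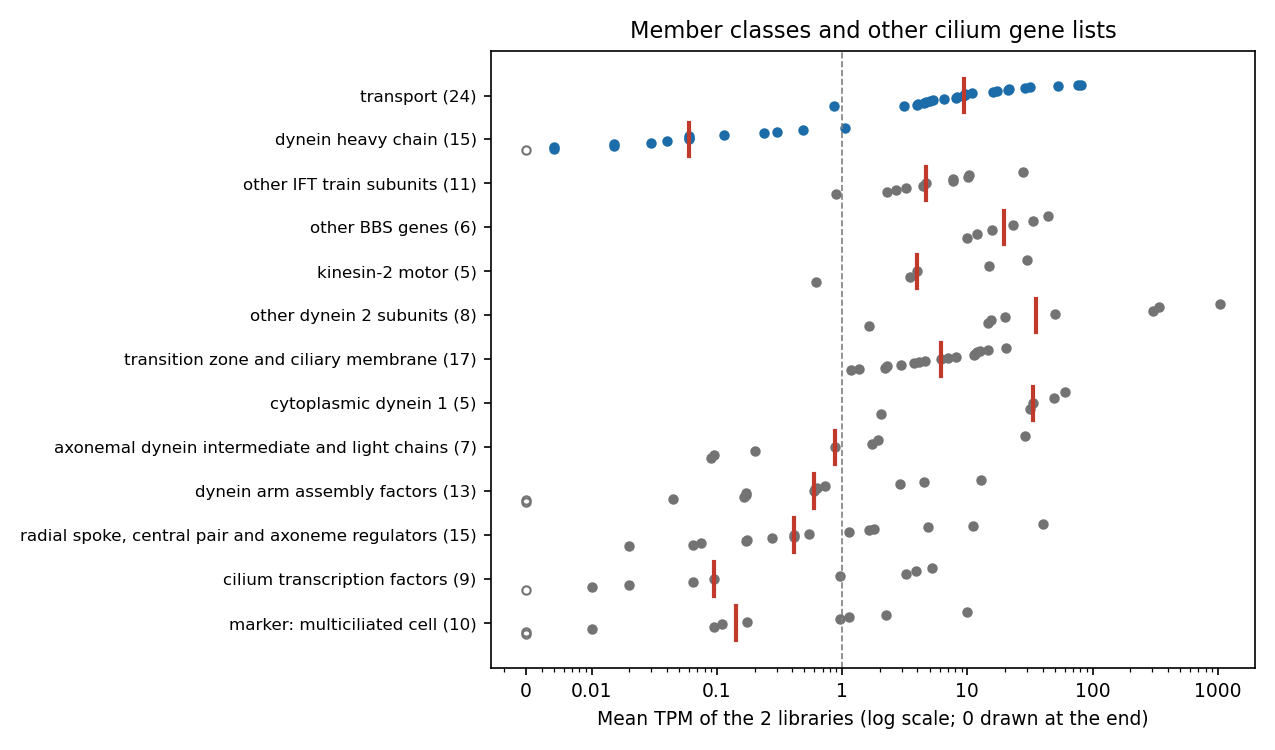
Mean TPM of the 2 libraries on a log scale for each gene of the 2 member classes (blue) and of 11 other lists (grey), with red bars at the medians, open circles for genes at 0 and a dashed line at 1 TPM. The number of genes stands in brackets, and the list medians run from 35.1 TPM for other dynein 2 subunits down to 0.06 TPM for the dynein heavy chains.

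Of 9 transcription factors of cilium genes 3 were detected. They were Rfx3 at 4.18 and 6.35 TPM, Rfx1 at 3.86 and 3.96 TPM and Rfx2 at 3.22 and 3.25 TPM, all of which bind the X-box. Foxj1, which switches on the motile program, was at 0.07 and 0.12 TPM. The list median was 0.095 TPM, and Gmnc was at 0 in both libraries. Foxj1, Mcidas, Gmnc and Myb are also in the list of multiciliated cell markers, and Rsph1 is in that list and among the axoneme regulators. The low levels of these lists are therefore not separate observations.

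The promoter windows were described by class, with no test of a difference. The X-box letters printed above stood in 5 of 20 transport windows (25%) and 0 of 14 dynein windows, against 2.26% of protein-coding genes with a window. At that share of 2.26%, a count of 0 in 14 windows does not show that the dynein windows hold fewer. The first base of the motif lay at position 2 after the start in Bbs1 and 24 in Bbs4, and at positions −121, −63 and −87, before the start, in Bbs7, Ift22 and Ift57. Expression did not order these 5 genes above the others, since they included the lowest transport gene, Bbs1, and Ift22 at 21.04 ± 2.53 TPM. The letters GTTGCC, a common form of the X-box arm, stood on either strand in 9 of 20 transport windows and 4 of 14 dynein windows, against 14.3% of protein-coding genes. The dynein windows were those of Dnah10 and of the near copies Dnah7a, Dnah7b and Dnah7c. The same letters also lie within the sites of Bbs1, Bbs7 and Ift57, so both counts overlap. The letters in a window do not show that a factor binds there.

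CpG dinucleotides were counted in the same windows, also without a test. The median window held 21 CpG in transport genes and 9.5 in dynein genes, against 13 in all windows of protein-coding genes, although GC content was similar, at 57.2%, 54.7% and 56.3%. The ratio of observed to expected CpG exceeded 0.6 in 18 of 20 transport windows and 2 of 14 dynein windows, against 47.6% of all windows. The 2 transport genes under 0.6 were Bbs4 (0.56) and Ift27 (0.59), and the 2 dynein genes over it were Dnah1 (0.64) and Dnah8 (0.602). Like Dnah8, the transport genes Bbs5 (0.602) and Ift52 (0.606) passed this cut only narrowly, so both counts depend on it. Dnah1 and Dnah8 were also among the 3 dynein genes with most reads, while Dnah7b had a ratio of 0.37. This property was examined after the levels were known.

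**Figure D5:**
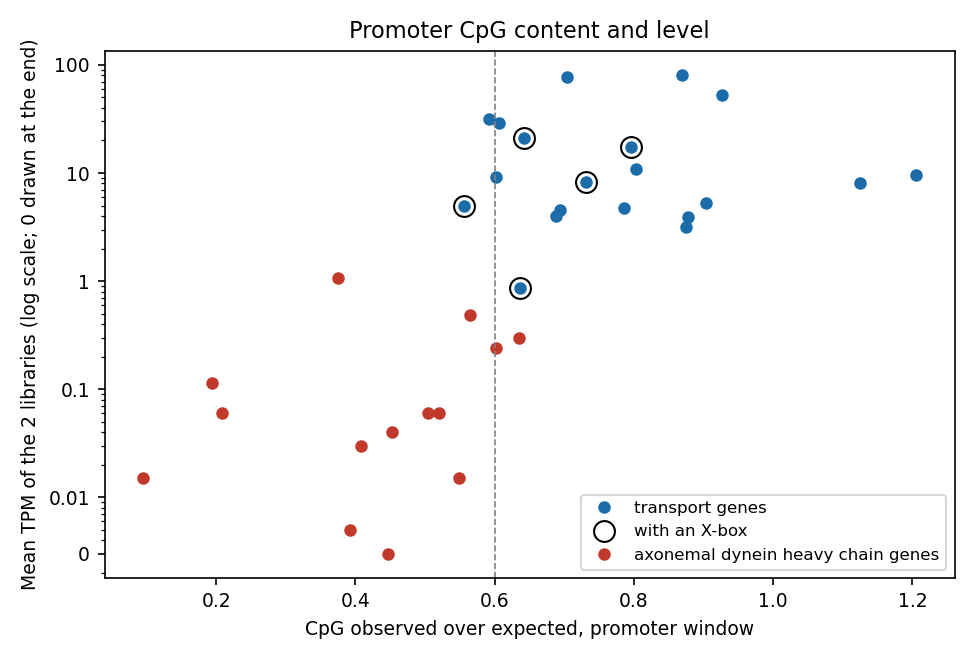
Mean TPM of the 2 libraries (log scale) against the observed over expected CpG ratio of the promoter window for 20 transport genes and 14 dynein heavy chain genes, with rings around the 5 genes with an X-box and a dashed line at 0.6. Transport genes lie mostly at the upper right and dynein genes at the lower left, with overlap in CpG ratio near 0.6 and in TPM between Bbs1 and Dnah7b.

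Within the transport genes, longer transcripts went with lower TPM. Across the 24 genes Spearman's rho between the longest listed transcript and mean TPM was −0.55 and Pearson's r of their logs −0.58, given as a description, since all values come from the same libraries and TPM is itself divided by length. Across the 12309 detected protein-coding genes the values were −0.27 and −0.29.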

How the data were processed

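Per the file headers, the authors deposited an expected count per gene and transcript, in which reads that match several models are divided among them, without normalization. The deposited TPM are, per the file headers, corrected for transcript length and scaled to a common total over every listed feature, with spike-ins counted in. The deposited percent columns give each transcript's share of the TPM of its gene, per the file headers. Per the deposited file descriptions the genome was mm10 with annotation M4. The aligner and quantifier are not stated in what was available here.

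Genes were matched by identifier without version to GENCODE M21 on GRCm38, which is mm10, with a match for 42462 of 43346 Ensembl genes. Symbols, biotypes and transcript types are those of M21, transcript lengths those of the deposited files. A gene is called detected at 1 TPM in both libraries. Counts were rounded and scaled with edgeR 4.0.16 (TMM) in R 4.3.3, and alternatively by size factors of DESeq2 1.42.0. Log2 ratios of replicate 2 over replicate 1 have 0.5 added and need a mean count of 50, a step tested on simulated data. Poisson intervals and the allowance of 3 reads for a count of 0 take in counting error alone, because PCR copies of a molecule are not marked. Transcript overlap used 100-nt windows of M21 transcripts, and alignments used Biopython 1.88. The other tools were pandas 2.3.3 with numpy 2.4.6, matplotlib 3.10.9 and scipy 1.17.1 under Python 3.11.15.

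The members and the 14 other lists were chosen with earlier results of these data known. Of 127 list entries 1, Tctn2, was left out because M21 does not class it as protein-coding. All members are named, with the 3 highest genes of each other list and its members below 1 TPM where 4 or fewer are. Foxj1, Rfx2 and Rfx3 are named in any case. A gene that this rule names is not reported here. Rfx1, Armc4, Pih1d3, Gmnc, Mcidas, Sntn, Wdr19, Ttc21b, Ttc8, Bbip1 and the named multiciliated markers were added after values were seen. Alternatives covered thresholds, scaling, posterior means, model length, copies and leaving out either replicate.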

Additional observations from a re-analysis of the deposited data

How the results depend on the processing

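Transport genes detected numbered 16 to 24 under the alternatives tried, against 23 in the analysis as reported. The dynein heavy chain count moved from 0 to 1, always through Dnah7b, with a minimum of 0.5 TPM (1), with posterior mean TPM (1) and with TPM rescaled without spike-ins (1), and lay between 0 and 1 when either replicate was left out. The transport median was 10.2 TPM without spike-ins and 6.95 TPM on long models. The dynein median was 0.18 TPM with posterior means, 0.03 TPM on long models, and 0.04 to 0.06 TPM with either replicate left out. The log2 ratio of the medians, 7.28 as reported, kept its direction in every alternative run, at 5.76 with posterior means, 7.86 on long models and 7.18 to 7.92 with either replicate left out. It was 8.07 for reads per kilobase of the longest model, an alternative chosen after seeing the data. With no filter on low counts 4 members were at least 2-fold apart (Dnah9, Dnah14, Dnah10 and Dnah3, on 0 to 8 reads), and with spike-in scaling 25. The same leading transcript was found in 14 members as reported, in 9 at a share over 80% and in 9 with posterior mean shares. The shorter motif letters were found in 13 promoter windows, against 5 for the X-box. The causes of these shifts were not tested, except that a lower limit, fewer reads or fewer letters admits more genes. Depth limits the dynein genes, 7 of which had fewer than 10 reads in both libraries. No paired analysis was possible because the design has 1 group.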
